A study of Mus musculus with 12 samples.

Results

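The 10 genes that mark macrophages were followed through RNA-seq libraries of F1 mouse testis. They were picked by name from the table of 20788 genes, and all 10 had a row and enough reads to be among the 16388 genes tested. They are Ptprc, Csf1r, Cd68, Adgre1, Mrc1, Cd163, C1qa, C1qb, Lyz2 and Cx3cr1. The study asked how lncRNA5251, a long non-coding RNA, acts on sperm formation when its level is changed with a lentivirus in male mice and the testes of their sons are examined. There were 4 groups of 3 libraries. The knockdown group came from males injected in the testes with a mix of LV3 viruses carrying short hairpin RNAs against different positions of lncRNA5251, and 3NC came from males given the LV3 control virus. The overexpression group came from males given an LV5 virus that carries lncRNA5251, and 5NC from males given the LV5 control virus. Per the methods, the fathers were ICR mice (the labels write the strain as "IRC mouse") of 4 weeks of age, the mothers were untreated, and the F1 males were killed at 8 weeks. The design text of the series differs from this, in that it has the F1 testes themselves receiving the virus. All 4 groups thus carry a lentiviral vector somewhere in their history, and a group without virus was not analysed here. Nothing in the labels ties the 3 libraries of a group to separate animals. Each p-value therefore sets a group difference only against the spread of these libraries, and part of that spread may be technical.

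Macrophages are the most abundant immune cells of the testis. They lie between the seminiferous tubules beside the testosterone-producing Leydig cells and around the tubule wall, and they arise from embryonic precursors and from blood monocytes. Their survival depends on the receptor encoded by Csf1r, which is activated by the ligands Csf1 and Il34, and much of their gene programme is driven by the transcription factor PU.1, the product of Spi1. The 10 genes do not mark macrophages alone. Ptprc encodes CD45, the phosphatase on the surface of all white blood cells, Lyz2 is also active in neutrophils and monocytes, and Cx3cr1 is shared with monocytes and natural killer cells. In RNA of a whole tissue, more cells of a type and more RNA per cell cannot be told apart.

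The libraries held 12719699 to 15771655 estimated reads each, and the 10 genes together took 102 to 138 CPM (counts per unit of library total, before TMM scaling) in 10 of the 12 libraries. They took 481 CPM in 3NC replicate 2 and 562 in knockdown replicate 1. These libraries stand apart from the other members of their own groups, and the fold changes of the 10 genes are given with and without them. The germ cell genes that define the tissue were present in every library, with 7 spermatid genes summing to between 11493 and 16524 CPM on the TMM-scaled library totals that are used from here on. The spermatid sum was lowest in the same libraries, at 11493 CPM in 3NC replicate 2 and 11863 CPM in knockdown replicate 1, against at least 12267 CPM elsewhere. Libraries of the same group differed from each other by more than sampling noise (chi-square per degree of freedom of at least 3.50). lncRNA5251 has no row under that name, so its own level was not checked.

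Levels of different genes were compared per length, as the RPKM values computed by the authors (reads scaled to gene length and library total). By the median over the 12 libraries, Lyz2 was highest at 30.5 RPKM. The complement genes C1qb (16.6 RPKM) and C1qa (14.4 RPKM) came next. Mrc1 followed with 7.49 RPKM. Cd68 stood at 4.21 RPKM and Csf1r at 3.69 RPKM, and their ranges over the libraries overlapped. Cx3cr1 (2.18 RPKM), Adgre1 (2.03 RPKM), Ptprc (0.72 RPKM) and Cd163 (0.315 RPKM) made up the lower end of the order. Neighbours in this order overlapped in their ranges, for example C1qb from 9.41 to 106 RPKM and C1qa from 8.87 to 113 RPKM. The order by median did not hold within each library, because Ptprc reached 20.7 RPKM in 3NC replicate 2 and there lay above Mrc1 at 10.4 RPKM.

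The surface receptors were described first. Ptprc (gene ID 19264, minus strand of chr1:138062859-138175756 in build GRCm38, which is mm10) was at 3.77, 94.8 and 2.90 CPM in 3NC replicates 1 to 3 and at 71.7, 6.91 and 5.47 CPM in knockdown replicates 1 to 3. In 5NC it was at 2.12, 3.31 and 2.65 CPM, and in the overexpression group at 3.35, 2.80 and 3.41 CPM. One library of 3NC and one of the knockdown group were thus far above the rest, at 28.0 and 21.2 times the median of the 12 libraries, and the 4 groups otherwise lay between 2.12 and 6.91 CPM. Even without those libraries, knockdown replicates 2 and 3 were the highest of the remaining 10.

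Csf1r (gene ID 12978) encodes the receptor for the macrophage growth factors. It stood at 13.6, 46.9 and 9.39 CPM in 3NC and at 54.0, 10.8 and 12.4 CPM in the knockdown group. The 5NC libraries lay close together at 13, 12.9 and 12.9 CPM, and the overexpression libraries at 13.6, 13.2 and 14.2 CPM. The same pair of libraries was highest, at 3.57 and 4.12 times the median, and the other 10 varied with a coefficient of variation of 11.5%. In the annotation, 873 exonic bases of Csf1r overlap Hmgxb3 on the opposite strand. The sources used here do not state whether counting used strand, so reads in that stretch cannot be assigned with certainty.

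Cx3cr1 (gene ID 13051, minus strand of chr9:120048683-120068296) encodes the receptor for the chemokine fractalkine, Cx3cl1. Its values were 8.80, 9.45 and 4.39 CPM in 3NC, 12.1, 3.99 and 5.00 CPM in the knockdown group, 6.80, 7.95 and 7.23 CPM in 5NC and 4.93, 9.32 and 9.68 CPM in the overexpression group. Here 3NC replicate 2 lay inside the range of the other libraries, at 1.24 times the median, and knockdown replicate 1 was the highest by a small margin, at 1.59 times. Of its exonic bases, 78 overlap the antisense gene Gm33858. Adgre1 (gene ID 13733, plus strand of chr17:57358581-57483529), which encodes F4/80, the classical surface antigen of mouse macrophages, had its highest values in the same pair of libraries, 25.2 CPM in 3NC replicate 2 and 24.9 CPM in knockdown replicate 1. The other 10 libraries lay between 4.29 and 6.84 CPM, so these stood at 4.15 and 4.10 times the median.

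**Figure D1:**
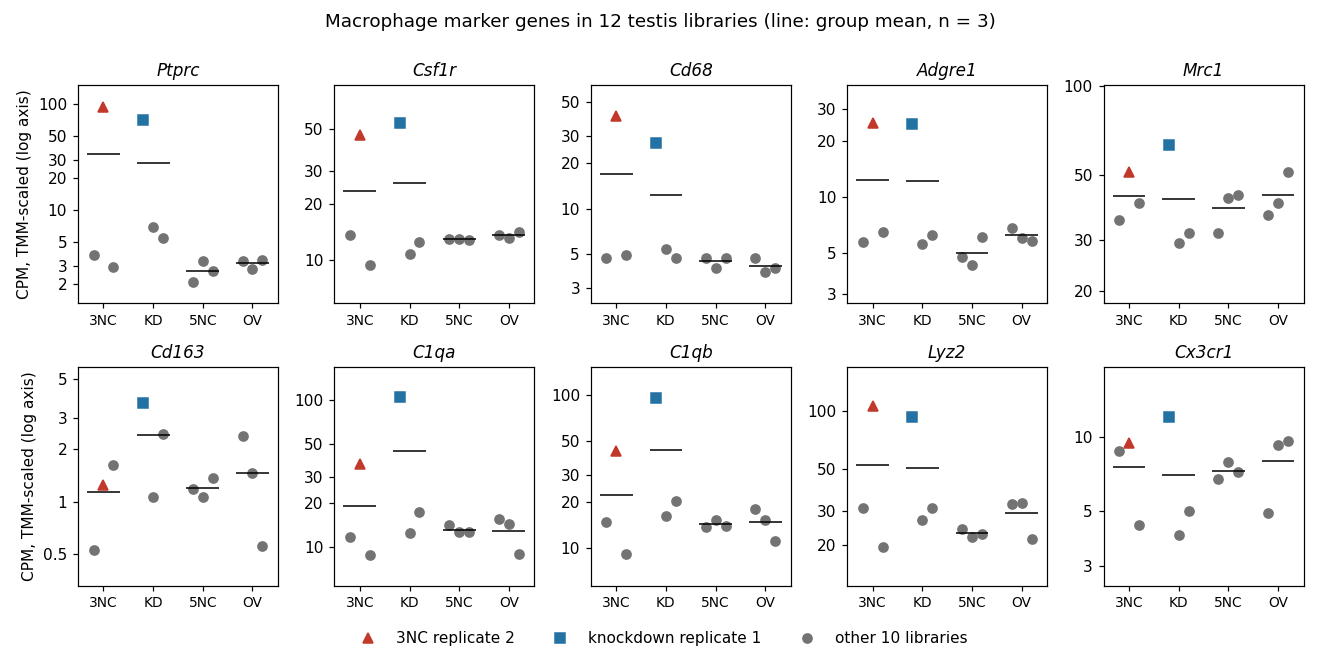
CPM of the 10 genes (vertical log axis) in each library of 3NC, the knockdown group (KD), 5NC and the overexpression group (OV), with a line at each group's mean (n = 3). Ptprc reached 94.8 CPM in 3NC replicate 2 (triangle) and 71.7 CPM in knockdown replicate 1 (square), whereas Mrc1 spread from 29.1 to 63.1 CPM over all 12 libraries.

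The endocytic and scavenger receptors did not move alike. Cd68 (gene ID 12514, minus strand of chr11:69664213-69666170), a protein of the lysosome membrane, was at 4.70, 40.7 and 4.93 CPM in 3NC and at 27.0, 5.38 and 4.73 CPM in the knockdown group. In 5NC it was at 4.74, 4.08 and 4.72 CPM and in the overexpression group at 4.73, 3.80 and 4.05 CPM. The libraries that stood apart were at 8.60 and 5.71 times the median, while the remaining 10 had a coefficient of variation of 10.3%, the lowest of the 10 genes.

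Mrc1 (gene ID 17533, plus strand of chr2:14229414-14332023) encodes the mannose receptor CD206, which is typical of resident macrophages. It was at 35.1, 51.2 and 40.1 CPM in 3NC, at 63.1, 29.1 and 31.7 CPM in the knockdown group, at 31.6, 41.6 and 42.4 CPM in 5NC and at 36.5, 39.9 and 51.1 CPM in the overexpression group. The value of 3NC replicate 2 was barely above that of overexpression replicate 3, and knockdown replicate 1 was at 1.58 times the median. Cd163 (gene ID 93671, plus strand of chr6:124304636-124330529), the scavenger receptor for haemoglobin bound to haptoglobin, was the least abundant of the 10 and rested on 7 to 58 reads per library. It was at 0.529, 1.24 and 1.62 CPM in 3NC, 3.67, 1.06 and 2.43 CPM in the knockdown group, 1.19, 1.06 and 1.36 CPM in 5NC and 2.37, 1.47 and 0.555 CPM in the overexpression group. The exact Poisson 95% interval, which covers counting error only, ran from 0.229 to 1.04 CPM in 3NC replicate 1 and from 2.78 to 4.74 CPM in knockdown replicate 1. For Cd163, 3NC replicate 2 was at 0.955 times the median and did not stand apart.

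The secreted products were the most abundant of the 10 per length. C1qa (gene ID 12259, minus strand of chr4:136895916-136898844) and C1qb (gene ID 12260, minus strand of chr4:136880126-136886200) encode chains of C1q, the recognition unit of the classical complement pathway, and are neighbours on the chromosome. C1qa was at 11.6, 36.5 and 8.78 CPM in 3NC, at 104, 12.6 and 17.4 CPM in the knockdown group, at 14.0, 12.7 and 12.6 CPM in 5NC and at 15.5, 14.3 and 9.04 CPM in the overexpression group. C1qb was highest in the same pair, with 14.8, 43.5 and 9.12 CPM in 3NC, 95.6, 16.2 and 20.4 CPM in the knockdown group, 13.8, 15.2 and 14.0 CPM in 5NC and 18.1, 15.4 and 11.2 CPM in the overexpression group. In contrast to Ptprc and Cd68, both C1q genes were higher in knockdown replicate 1 (7.77 and 6.26 times the median) than in 3NC replicate 2 (2.73 and 2.84 times). Their ratio of reads, C1qa to C1qb, stayed between 0.778 and 1.09 over all 12 libraries.

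Lyz2 (gene ID 17105, minus strand of chr10:117277541-117282272) encodes lysozyme M, an enzyme that cleaves bacterial cell walls. It was at 31.0, 106 and 19.5 CPM in 3NC, at 93.9, 27.0 and 30.9 CPM in the knockdown group, at 24.3, 22.0 and 22.8 CPM in 5NC and at 32.7, 33.1 and 21.5 CPM in the overexpression group. The same pair stood at 3.67 and 3.24 times the median. Its estimated read numbers in that pair were not whole, 1712.15 and 1485.17 reads. Lyz1 is a near-identical neighbour of Lyz2, and where reads fit both genes the level of Lyz2 is uncertain.

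Promoter sequences were examined for 7 of the 10 genes, taken from a RefSeq table of build GRCm38.p6. They are windows from 250 bases before to 50 bases after the start of transcription. No window was examined for the remaining genes, whether or not the table holds one, and the counts below leave them out. The windows of 3 genes that stood far apart in 3NC replicate 2 and knockdown replicate 1 (Ptprc, Cd68 and C1qb) are shown beside those of 2 genes that varied less (Mrc1 and Cx3cr1). Each is written 5′ to 3′ on the gene's own strand, and capitals mark the letters GAGGAA or their reverse complement TTCCTC, the purine-rich core that ETS factors such as PU.1 can bind.
Ptprc, chr1:138175256-138175555, minus strand: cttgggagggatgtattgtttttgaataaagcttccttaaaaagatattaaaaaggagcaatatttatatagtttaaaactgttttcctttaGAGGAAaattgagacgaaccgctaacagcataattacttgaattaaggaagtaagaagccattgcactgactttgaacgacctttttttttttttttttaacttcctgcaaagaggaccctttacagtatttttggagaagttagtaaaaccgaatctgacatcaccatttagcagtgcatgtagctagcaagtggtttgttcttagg
Cd68, chr11:69666121-69666420, minus strand: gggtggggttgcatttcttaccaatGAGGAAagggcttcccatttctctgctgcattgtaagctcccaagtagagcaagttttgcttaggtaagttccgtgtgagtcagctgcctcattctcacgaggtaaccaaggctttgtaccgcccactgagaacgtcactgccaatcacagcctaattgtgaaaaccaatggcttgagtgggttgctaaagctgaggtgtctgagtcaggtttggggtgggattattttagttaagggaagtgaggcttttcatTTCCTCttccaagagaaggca
C1qb, chr4:136886151-136886450, minus strand: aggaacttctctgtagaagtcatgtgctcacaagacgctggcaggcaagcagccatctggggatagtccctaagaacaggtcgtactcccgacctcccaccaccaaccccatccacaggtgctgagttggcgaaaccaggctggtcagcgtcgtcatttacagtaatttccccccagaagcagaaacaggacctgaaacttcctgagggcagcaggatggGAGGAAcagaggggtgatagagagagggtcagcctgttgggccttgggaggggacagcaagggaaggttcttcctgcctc
Mrc1, chr2:14229164-14229463, plus strand: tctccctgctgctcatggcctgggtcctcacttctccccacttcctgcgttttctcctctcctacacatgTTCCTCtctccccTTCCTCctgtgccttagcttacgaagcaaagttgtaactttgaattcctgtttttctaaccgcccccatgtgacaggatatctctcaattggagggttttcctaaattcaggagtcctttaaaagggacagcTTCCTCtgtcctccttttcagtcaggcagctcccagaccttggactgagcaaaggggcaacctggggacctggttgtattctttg
Cx3cr1, chr9:120068247-120068546, minus strand: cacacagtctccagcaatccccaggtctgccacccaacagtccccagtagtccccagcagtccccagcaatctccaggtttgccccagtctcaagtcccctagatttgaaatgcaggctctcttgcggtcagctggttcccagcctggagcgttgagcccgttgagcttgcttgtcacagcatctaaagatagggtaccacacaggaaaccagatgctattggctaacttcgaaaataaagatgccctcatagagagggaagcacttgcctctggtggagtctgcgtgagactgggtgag
The letters occurred in 4 of the 8 windows of these genes (Ptprc has a second window, without them), and in 28.3% of all 32851 promoter windows of this length in the table. The window of Mrc1 held them 3 times, that of Cd68 2 times and those of Ptprc and C1qb once, whereas those of Cx3cr1, Cd163 and Lyz2 did not hold them. A match is a description of the letters, and binding was not measured.

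How the genes stood in relation to each other differed between libraries. Set against Csf1r in the same library, Ptprc had an RPKM ratio of 1.5 in 3NC replicate 2 and 0.979 in knockdown replicate 1, and of 0.125 to 0.469 in the other 10. For Mrc1 the order was turned, since its ratio to Csf1r was 0.756 and 0.809 in that pair and 1.68 to 2.98 elsewhere. Cx3cr1 behaved like Mrc1, with ratios of 0.200 and 0.224 against 0.362 to 0.708 elsewhere. The groups of genes also separated the pair itself. C1qa was at 7.32 times Csf1r in knockdown replicate 1, above the 2.42 to 5.30 of all other libraries, whereas in 3NC replicate 2 it was at 2.98 times. Cd68 was at 2.83 times Csf1r in 3NC replicate 2, against 1.62 in knockdown replicate 1 and at most 1.71 elsewhere. The summed CPM of the 10 genes was 456 in 3NC replicate 2 and 550.0 in knockdown replicate 1, and between 107 and 139 in the others. Of the 10 genes, 4 had their highest value in 3NC replicate 2 (Ptprc, Cd68, Adgre1 and Lyz2) and 6 in knockdown replicate 1.

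**Figure D2:**
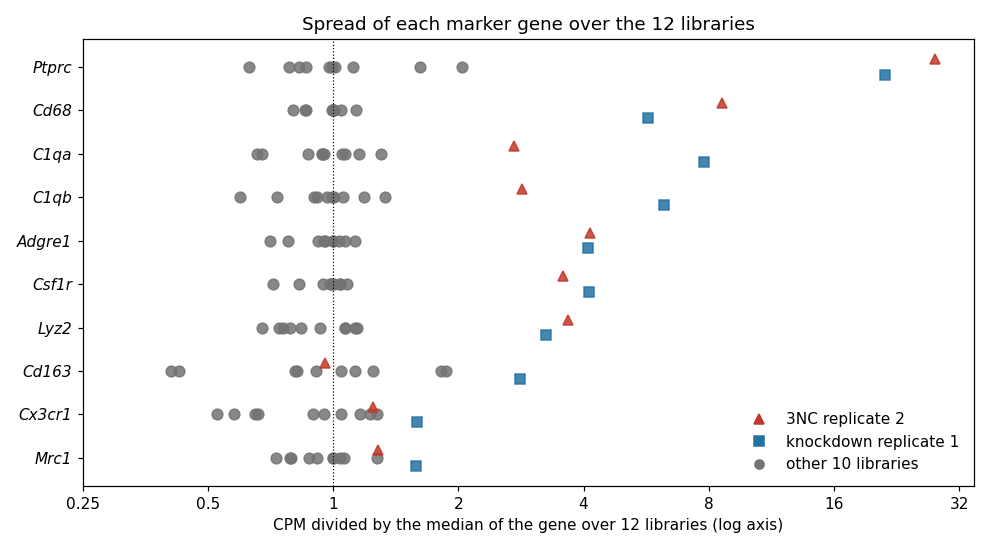
CPM of each gene in each library divided by the gene's median over the 12 libraries (horizontal log axis), with genes ordered by their largest ratio. Ptprc reached 28.0 and 21.2 times its median in 3NC replicate 2 (triangle) and knockdown replicate 1 (square), which are drawn slightly above and below the line of the other 10 libraries, and Mrc1 stayed within 1.58 times.

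Over the 10 libraries without this pair, the 45 pairs of genes had a median Pearson r of 0.05 (log2 CPM), from -0.81 for Cd68 and Cx3cr1 to 0.92 for C1qa and C1qb, and 27 pairs had an r above 0. C1qa and Lyz2 (r = 0.73), C1qb and Lyz2 (r = 0.78) and Csf1r and Cx3cr1 (r = 0.73) were among the higher ones. Mrc1 had negative values with C1qa (-0.58) and with Cd68 (-0.67). These are descriptions over 10 libraries that share their scaling, and no test was made of them. Over all 12 libraries the r of Ptprc and Csf1r was 0.93, and over the 10 it was -0.23, so that the former rests on the pair that stood apart.

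The first comparison asked whether the genes differed between the knockdown group and 3NC. None of the 10 passed edgeR's quasi-likelihood test at an adjusted p under 0.05, where 0% of all tested genes did. An unadjusted p under 0.05 was reached by 0 of the 10 and by 924 of all 16388 genes. DESeq2 called 0 of the 10 as well, beside 16 of 16242 genes in all. It gave no adjusted p for Ptprc and Cd68 in any of the 3 comparisons. The fitted log2 fold changes (knockdown over 3NC) had a median of -0.03 over the 10 genes, against -0.02 over all genes, with 4 above 0 and 6 below. The largest was that of C1qa, at 1.23 (SE 0.72, 95% interval -0.34 to 2.81), with an adjusted p of 0.764 by edgeR's quasi-likelihood test. Cd163 had 1.07 (SE 0.55) and C1qb 0.97 (SE 0.65). Cd68 had -0.44 and Ptprc -0.27, with an interval for Ptprc from -2.82 to 2.28 that covers both large increases and large decreases. Mrc1 had the narrowest interval, from -0.62 to 0.57 around -0.03. The ranges of the groups overlapped for each of the 10 genes, whereas 11.3% of all genes had ranges that did not.

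Most of these estimates turned on single libraries. That of Cd163, which rests on few reads, ranged from 0.62 to 1.42 with 1 of the 6 libraries compared left out. Without 3NC replicate 2, the log2 fold change of Ptprc was 3.06, that of C1qa 2.12, that of Cd68 1.36 and that of Csf1r 1.16. Without knockdown replicate 1 they were -2.45, -0.34, -1.73 and -1.0. With both left out, 7 of the 10 genes were above 0, with a median of 0.13 against -0.02 over all genes. Ptprc had 0.89, Cd163 0.70, C1qb 0.61, C1qa 0.55 and Cx3cr1 -0.55, and Csf1r was at 0.01, Adgre1 at -0.05 and Cd68 at 0.07. None of the 10 passed in any of these fits, where the lowest adjusted p without both was 0.904 by edgeR's quasi-likelihood test. An unadjusted p under 0.05 was reached there by 2 of the 10 (Ptprc and C1qb) and by 702 of all 16433 genes tested.

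The second comparison set the overexpression group against 5NC, which are the groups without the pair that stood apart. Again 0 of the 10 genes passed by edgeR, against 0.311% of all genes (34 higher and 17 lower), and 0 of the 10 had an unadjusted p under 0.05, against 1952 of all genes. DESeq2 called 0 of the 10, with 328 genes called in all. The median log2 fold change (overexpression over 5NC) was 0.13 over the 10 genes and -0.01 over all genes, with 8 above 0. The values were small, from -0.11 for Cd68 to 0.34 for Lyz2 (SE 0.59, adjusted p 0.887 by edgeR's quasi-likelihood test). Adgre1 had 0.31 and Ptprc 0.25. The intervals were wide despite the close libraries, for example -2.80 to 3.29 for Ptprc, since 1 fit over all 12 libraries gives each gene 1 estimate of the spread for all groups. For Csf1r the ranges did not overlap, with 13.2 to 14.2 CPM in the overexpression group above 12.9 to 13 CPM in 5NC, a log2 fold change of 0.08. It was the only one of the 10 with separate ranges here, against 21.3% of all genes.

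In a fit without 3NC replicate 2 and knockdown replicate 1, these fold changes had smaller adjusted p-values. The lowest of the 10 was 0.380, for Adgre1 at 0.31, and that of Lyz2 was 0.409 at 0.34, by edgeR's quasi-likelihood test. None passed, while 159 of all genes did.

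The third comparison was between the control viruses, 5NC against 3NC. None of the 10 genes passed by edgeR, where 0.128% of all genes did (5 higher and 16 lower). DESeq2 called 0 of them, beside 173 of 16242 genes in all. Of the 10 genes, 2 had an unadjusted p under 0.05, against 1763 of all genes. They were Ptprc, with a log2 fold change of -3.65 (SE 1.36, adjusted p 0.397), and Cd68, with -1.89 (SE 0.85, adjusted p 0.461), both by edgeR's quasi-likelihood test. Adgre1 had -1.31 and Lyz2 -1.19, and Mrc1 (-0.13) and Cx3cr1 (-0.04) were close to 0. Of the 10 genes, 9 were below 0, with a median of -0.75 against -0.02 over all genes. With 3NC replicate 2 and knockdown replicate 1 left out, 4 of the 10 were below 0, with a median of 0.09 against 0.01, and 0 of the 10 had an unadjusted p under 0.05, against 2365 of all 16433 genes. The ranges of the groups overlapped for each of the 10, against 13% of all genes with separate ranges. Without 3NC replicate 2 alone, Ptprc was at -0.32, Adgre1 at -0.28, Cd68 at -0.09 and Lyz2 at -0.13, and C1qa and Csf1r were above 0, at 0.36 and 0.17. Knockdown and 5NC were both set against the same 3NC libraries, so that a value of 3NC replicate 2 enters both comparisons.

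**Figure D3:**
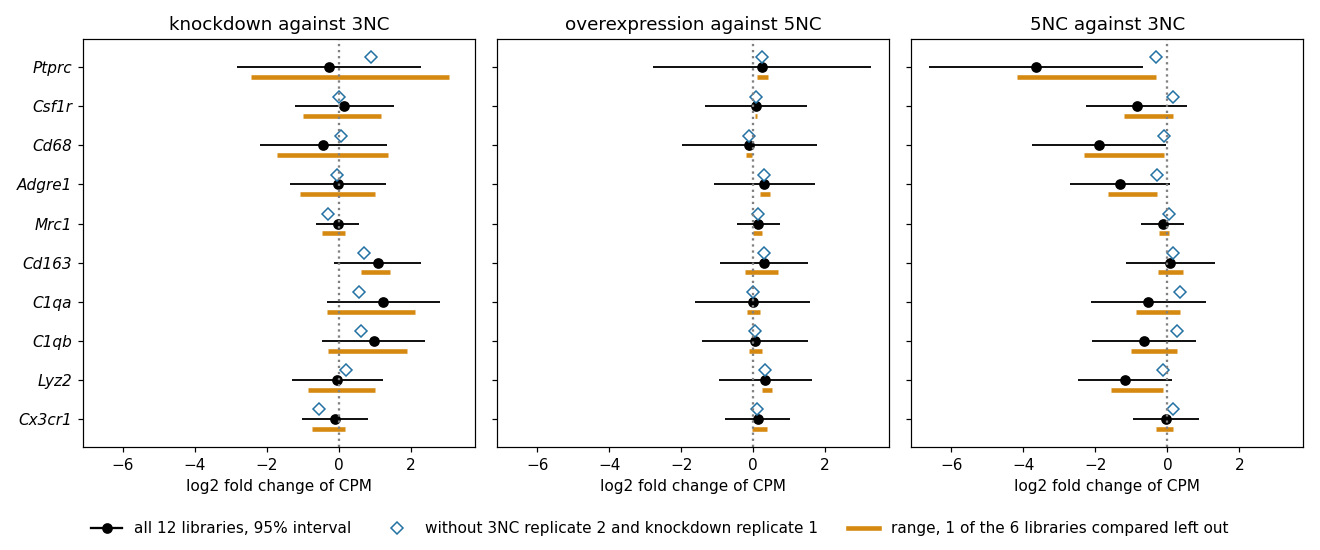
Log2 fold changes of CPM (horizontal axis) of the 10 genes in the 3 comparisons, as points with 95% intervals from the fit of all 12 libraries, diamonds for the fit without 3NC replicate 2 and knockdown replicate 1, and bars for the range over fits that each leave out 1 of the 6 libraries compared. For Ptprc in knockdown against 3NC the bar runs from -2.45 to 3.06, and in overexpression against 5NC it runs from 0.09 to 0.42.

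The neighbours of these genes in the macrophage programme were described from lists of genes. Of 30 other macrophage and myeloid genes, 24 were higher in both 3NC replicate 2 and knockdown replicate 1 than in each of the other 10 libraries, as were 8 of the 10 marker genes. Of all 16388 tested genes, 13.9% lay this way, and of the 29 tested genes of this list 23 did. The pair was singled out on the values of the marker genes, so their count follows in part from that choice and is no test. C1qc, the third C1q chain, was at 41.1 and 100.3 CPM against 7.56 to 15.8 CPM elsewhere, so it repeated the pattern of C1qa and C1qb. Spi1, which encodes PU.1, was at 11.6 and 15.4 CPM against 0.608 to 2.46 CPM. Tyrobp, an adaptor of activating receptors, was at 24.5 and 22.2 CPM against 1.82 to 3.65 CPM, and Fcer1g, the shared chain of Fc receptors, at 19.6 and 39.8 CPM against 1.15 to 4.39 CPM. Further genes of the list were also above the other libraries in both. Timd4 was at 3.17 and 6.45 CPM against at most 2.36 CPM, Lyve1 at 1.86 and 2.66 CPM against at most 1.38 CPM and Folr2 at 6.28 and 7.90 CPM against at most 4.80 CPM. Of the 6 genes of the list that were not above in both libraries, Cd209f was at 0.808 and 1.71 CPM against 1.06 to 3.99 CPM, and thus lowest in 3NC replicate 2. Fcgr3 lay inside the range of the others in both, Pf4 (3.04 and 0.569 CPM, others 0.399 to 2.29 CPM) and Gpr34 were above it in 3NC replicate 2 alone, and Trem2 in knockdown replicate 1 alone. These 5 and Timd4 were named after their values were seen. Aif1, which encodes the macrophage protein Iba1, the last of the 6, was at 299 and 290.5 CPM, inside the 286 to 340.1 CPM of the other libraries. Its median was 411 RPKM, against 3.69 RPKM for Csf1r and 4.21 RPKM for Cd68. Whether macrophages carry its RNA here was not tested. No gene of this list passed in any of the 3 comparisons by edgeR (0 of 29 tested, with 2, 0 and 4 at an unadjusted p under 0.05 in the order above). Without both libraries, 0 of 29 passed, with 6, 8 and 6 at an unadjusted p under 0.05, where 702, 2705 and 2365 of all 16433 tested genes had one.

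Among 14 ligands and receptors of macrophage growth and recruitment, 12 were higher in both of these libraries than in each of the other 10, and Tgfbr1 and Csf2 were not. Of the 13 tested genes of this list, 12 were, beside 13.9% of all tested genes. Csf1, the growth factor for Csf1r, was at 18.6 CPM in 3NC replicate 2 and 14.1 CPM in knockdown replicate 1, and at 5.27 to 9.37 CPM elsewhere. Il34, the other ligand, was at 1.24 and 1.83 CPM against 0.596 to 1.13 CPM. Cx3cl1, the ligand of Cx3cr1, was at 6.40 and 21.2 CPM against 2.15 to 3.44 CPM, while its receptor was at 9.45 and 12.1 CPM against 3.99 to 9.68 CPM. Ccl8, a chemokine for monocytes and T cells, was at 52.1 and 88.5 CPM against 2.06 to 10.9 CPM. Of 13 tested genes, 0 passed in each comparison by edgeR, and 0, 0 and 3 had an unadjusted p under 0.05. Without both libraries, 0 of 11 tested genes passed, and 3, 2 and 2 had such a p, against the same 702, 2705 and 2365 of all 16433.

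All 11 other complement genes, all of them tested, were higher in both libraries than elsewhere, beside 13.9% of all tested genes. C1qc is counted both here and among the 30 macrophage and myeloid genes. C3, the central complement component, was at 402 and 651 CPM against 9.52 to 48.3 CPM. C4b was at 55.7 and 88.4 CPM against 25.7 to 39.4 CPM. No complement gene passed (0 of 11, with 2, 0 and 3 at an unadjusted p under 0.05 by edgeR, and 0 of 11, with 5, 3 and 1, without both libraries, where 702, 2705 and 2365 of all 16433 genes had such a p). In the 10 other libraries, C3 was at 42.9 and 48.3 CPM in knockdown replicates 2 and 3, which also had the highest remaining values of Ptprc.

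Genes of other white blood cells moved in the same libraries, and their part in the levels of the 10 marker genes was not tested. In 3NC replicate 2 and knockdown replicate 1, the summed CPM was 486 and 406 for 12 pan-leukocyte genes (42.5 to 84.8 elsewhere), and 109 and 84.2 for 12 T cell genes (13.6 to 24.9 elsewhere). It was 195 and 61.1 for 8 natural killer cell genes (0.716 to 3.99 elsewhere) and 365 and 237 for 8 monocyte genes (66.7 to 94.7 elsewhere). The 7 MHC class II genes, which present antigens to T cells and are active in macrophages, dendritic cells and B cells, summed to 761 and 971 CPM against 45.9 to 128 CPM, and H2-Aa among them was at 179 and 231 CPM against 7.29 to 27.2 CPM. Of these 7 genes, 6 were higher in both libraries than in each of the others, and H2-Eb1 was at 48.0 CPM in 3NC replicate 2 but at 4.68 CPM in knockdown replicate 1, inside the 0.793 to 6.47 CPM of the others. Of the defining markers, Cd3e of T cells was at 4.10 and 3.60 CPM and listed at 0 in 3 other libraries, and Ly6c2 of monocytes was at 77.9 and 28.4 CPM against at most 2.46 CPM. Of the monocyte genes, 7 of 8 were higher in both libraries than in each of the others. The exception was Nr4a1, the most abundant of them, which was lowest in 3NC replicate 2 at 23.1 CPM and at 35.8 CPM in knockdown replicate 1 (23.4 to 50.8 CPM elsewhere). Of the T cell genes, 11 of 12 were, and the exception was Cd3d, the most abundant, at 10.6 and 7.02 CPM against 3.97 to 8.14 CPM. Of the pan-leukocyte genes, 10 of 12 were, without Cd52 and Cd37, and of the natural killer cell genes, 8 of 8. Among tested genes, it was 7 of 8 monocyte, 8 of 9 T cell and 10 of 12 pan-leukocyte genes. It was also 3 of 3 natural killer cell and 6 of 7 MHC class II genes, beside 13.9% of all 16388 tested genes. Gzmb, the granzyme of killer cells, was at 99.2 and 25.8 CPM against at most 1.35 CPM.

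The summed B cell genes were above the other libraries in 1 of the pair. Their sum was 42.3 CPM in knockdown replicate 1 and 19.5 CPM in 3NC replicate 2, where the other libraries had 12.6 to 23.1 CPM. Cd79a, part of the B cell receptor, was at 2.66 CPM in the former and 0.124 CPM in the latter, against 0 to 0.266 CPM elsewhere. Pax5, a B cell transcription factor, made up 10.5 CPM of the sum in 3NC replicate 2 and did not stand apart there. Of the 10 B cell genes, 3 were higher in both libraries than in each of the others, and these are named after their values were seen. Cd79b was at 0.684 CPM in 3NC replicate 2 and 1.64 CPM in knockdown replicate 1 against at most 0.266 CPM, Cd22 at 0.684 and 1.90 CPM against at most 0.199 CPM, and Cd72 at 2.11 and 13.7 CPM against at most 1.15 CPM. Cxcl13, a chemokine that attracts B cells, was at 15.0 CPM in knockdown replicate 1 and 0.808 CPM in 3NC replicate 2 against at most 0.723 CPM. Neutrophil genes summed to 34.9 CPM in 3NC replicate 2 and 22.8 CPM in knockdown replicate 1 against 2.62 to 21.8 CPM, and S100a8 had its highest value, 6.12 CPM, in overexpression replicate 1, where Lyz2 was at 32.7 CPM. Of the 11 neutrophil genes, only Csf3r was higher in both libraries than in each of the others, at 7.02 and 8.53 CPM against at most 1.11 CPM. Of the B cell list, 5 of 10 genes were tested, and of the natural killer list 3 of 8. Among tested genes, 1 of 5 B cell genes and 1 of 7 neutrophil genes were higher in both libraries, beside 13.9% of all 16388 tested genes. None of the genes of these white blood cell lists passed in a comparison by edgeR.

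The lists of testis cells stayed within 1.43 times their medians in this pair. In 3NC replicate 2 and knockdown replicate 1, the 8 Leydig cell genes summed to 1.13 and 0.879 times their median over the 12 libraries, the 8 Sertoli cell genes to 1.11 and 0.973 times, the 6 peritubular myoid genes to 1.10 and 0.991 times and the 8 endothelial genes to 1.43 and 1.16 times. The endothelial sums, 71.9 and 58.1 CPM, were above the 35.0 to 57.5 CPM of the other libraries. Of the 8 endothelial genes, 2 were higher in both libraries than in each of the others, beside 13.9% of all tested genes. A further 3 were higher in 3NC replicate 2 alone, while Vwf, the most abundant, was at 0.862 and 0.958 times its median. Mast cell genes were at 1.29 and 1.05 times, dendritic cell genes at 1.27 and 1.28 times and adipocyte genes at 1.62 and 1.04 times. Zbtb46, the most abundant gene of the dendritic cell list, was at 1.0 and 0.921 times its own median, whereas 3 of the 8 genes of that list were higher in both libraries than in each of the others. They are named after their values were seen, Itgax at 3.71 and 5.18 times, Xcr1 at 3.31 and 4.84 times and Clec9a, with at most 15 reads, at 14.0 and 2.85 times. Of the 5 tested genes of the dendritic cell list, 2 were higher in both, beside 13.9% of all tested genes. Blood genes were at 1.18 and 1.06 times. Other lists did not all stay near theirs. The 5 lymphoid stroma genes found were at 1.55 and 5.08 times, where Cxcl13 alone made up 15.0 CPM of the sum in knockdown replicate 1 and was the only one of the 5 above the others in both libraries. The 11 epididymis genes were at 3.44 and 1.08 times (93.3 and 29.2 CPM), close to the 3.50 times of the marker genes in 3NC replicate 2, while 5NC replicate 2 had the highest sum, 342 CPM, and a marker gene sum of 125 CPM near the median. Spermatogonia genes were at 1.0 and 0.816 times and spermatocyte genes at 0.945 and 0.940 times.

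**Figure D4:**
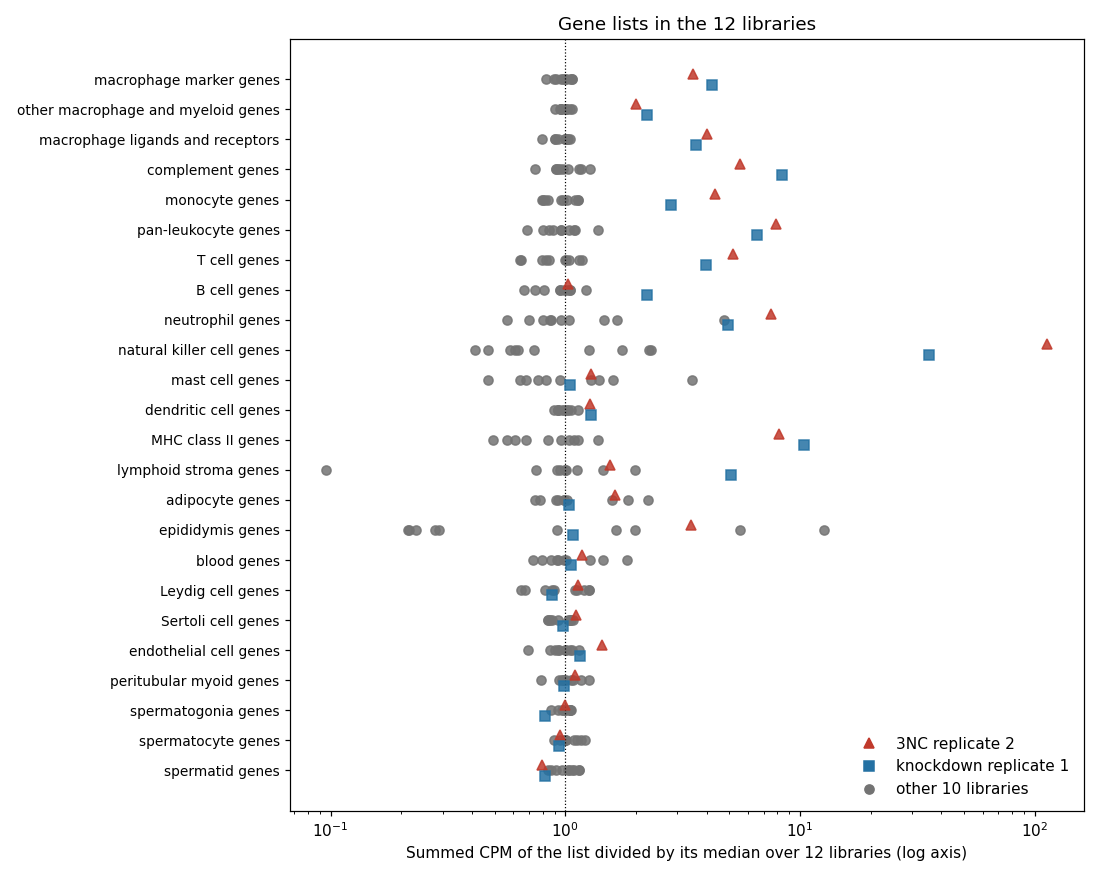
Summed CPM of the marker genes and of 23 further lists in each library, divided by the list's median over the 12 libraries (horizontal log axis). Several lists lie to the right of all other libraries in both 3NC replicate 2 (triangle) and knockdown replicate 1 (square). They include the pan-leukocyte, T cell, natural killer cell, monocyte, MHC class II and complement lists, and the marker genes at 3.50 and 4.23 times. The neutrophil list does so too, as do, nearer to 1, the dendritic cell (1.27 and 1.28 times) and endothelial lists (1.43 and 1.16 times). B cell genes do not in 3NC replicate 2 (1.03 times), and mast cell genes do not in either. Higher in both libraries than elsewhere were 3 of the 10 B cell genes (1 of 5 tested) and 3 of the 8 dendritic cell genes (2 of 5 tested). Of all tested genes, 13.9% were.

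Of all listed genes, those that passed by edgeR were not of white blood cells. Hbb-bs and Hbb-bt, genes of beta globin, were higher in the overexpression group than in 5NC and lower in 5NC than in 3NC. Spint3, a gene of the epididymis, and Spo11, which makes the breaks that start meiotic recombination, were lower in the overexpression group than in 5NC. Without both libraries, Hbb-bs and Hbb-bt passed in the same comparisons, as did Spo11, and 5 of the 7 tested epididymis genes passed in overexpression against 5NC (Adam7, Ces5a, Crisp1, Spink8 and Spint3).

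For each of the 10 genes, the 3 other genes with the highest Pearson r of log2 CPM over the 12 libraries were listed, as a description of likeness. C1qa and C1qb were both closest to C1qc (r = 0.99 for each) and then to Cd14, a receptor for bacterial lipopolysaccharide, followed by Cx3cl1 for C1qa and Fcer1g for C1qb. Over the 10 libraries without the pair that stood apart, C1qc had an r of 0.87 with C1qa and 0.86 with C1qb, and Cx3cl1 an r of 0.56 with C1qa. Lyz2 was closest to Laptm5, a lysosomal protein of white blood cells, with an r of 0.996 and of 0.961 over the 10 libraries, and then to Rack1 and Psap. Ptprc was closest to Btg2 (0.99, and 0.91 over the 10), Plek (0.99, and 0.77) and Trex1 (0.99, and 0.81). Csf1r was closest to Ptpn6, Bgn and Tgm2, each with an r of 0.99, and with 0.86, 0.90 and 0.89 over the 10.

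Among the 3 genes closest to Cd68 were Lilrb4a and Nin (0.99 and 0.98), with an r of 0.69 and 0.51 over the 10 libraries. Adgre1 was closest to Sla (0.99, and 0.77 over the 10), Pik3ap1 (0.98, and 0.62) and Hcls1 (0.98, and 0.66). Among the 3 genes closest to Mrc1 were Atad2b and Ikzf2, each with an r of 0.89, and with 0.88 and 0.76 over the 10. Cx3cr1 was closest to Ror1, Msmo1 and Lcat (0.93, 0.91 and 0.91). Cd163, with few reads, was closest to Fam181b, Rasgef1c and Dip2c, at 0.84, 0.83 and 0.82. None of the other 9 marker genes were allowed in these lists, and with 12 libraries and 16388 genes a high r is reached easily.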

How the data were processed

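RNA-seq of 12 testis libraries was analysed from a single table. In the methods, the authors mapped reads onto mouse genes by SOAPaligner; build mm10 is from the labels. The table deposited by the authors holds estimated counts per gene, unscaled, with fractions in some of the 12 libraries in 17.26% of its rows. How reads were shared among genes, and whether strand was used, is not given in these sources. The labels name total RNA and the methods enrichment with oligo(dT) beads. The authors also deposited RPKM values, which were used for levels per length. The authors used DEGseq, which does not model replicate spread. A further 18 columns of sample values in the table were not used.

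Estimated counts were rounded. Genes with few reads were removed with filterByExpr, leaving 16388 of 20788. A single model with a term per group was fitted to all 12 libraries (edgeR 4.0.16 in R 4.3.3, TMM, glmQLFit and glmQLFTest), with Benjamini-Hochberg adjustment over all genes and calls made at 0.05. Biological variation between libraries was 22.9% (coefficient of variation). CPM values are scaled by TMM, and log2 CPM for correlations used a prior count of 2. At 12719699 to 15771655 reads per library, Cd163 and other low genes have wide counting intervals. Alternatives were RLE size factors, total counts, no filter, a replicate block, separate fits of 6 libraries, leaving out each of the 6 libraries compared, 3NC replicate 2 and knockdown replicate 1 left out together, DESeq2 1.42.0, and limma 3.58.1 on log2 CPM, with voom quality weights, and on log2(RPKM + 0.1) and log2(RPKM + 1). The scripts were tested on simulated data.

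The 10 genes, the 23 lists and the rule for named genes were chosen with earlier results of these data known. Named were the 10 genes, the 3 genes most like each, list genes that passed, 15 fixed genes (C1qc, Csf1, Il34, Cx3cl1, Spi1, Tyrobp, Fcer1g, Aif1, Lyve1, Folr2, H2-Aa, Ly6c2, Cd3e, Cd79a and S100a8), and the 2 most abundant genes per list. Some genes that this rule names are given only within the counts and sums of their list or are not reported here. Promoter windows and gene positions are from RefSeq (GRCm38.p6), overlaps from GENCODE M21.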

Additional observations from a re-analysis of the deposited data

How the results depend on the processing

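None of the 10 marker genes passed in any comparison under any alternative that was run. DESeq2 gave no adjusted p for Ptprc and Cd68. Over the 10 genes and 17 alternatives (170 values per comparison), the direction turned in 35 values for knockdown against 3NC, in 13 for overexpression against 5NC and in 17 for 5NC against 3NC. Without both 3NC replicate 2 and knockdown replicate 1, the log2 fold change turned for Ptprc (0.89), Cd68 (0.0704) and Lyz2 (0.20) in knockdown against 3NC, and for C1qa (0.36), C1qb (0.26), Csf1r (0.17), Cx3cr1 (0.15) and Mrc1 (0.0341) in 5NC against 3NC. With voom quality weights it turned for Ptprc (0.38) and Csf1r (-0.19) in knockdown against 3NC, for Mrc1 (0.10) in 5NC against 3NC, and for C1qa (0.15), Cx3cr1 (-0.0019) and Mrc1 (-0.0678) in overexpression against 5NC. With limma on log2 CPM, log2(RPKM + 0.1) and log2(RPKM + 1) it turned for Ptprc (0.44, 0.38 and 0.14) and Lyz2 (0.0941, 0.0711 and 0.0661) in knockdown against 3NC and for Cx3cr1 (0.0305, 0.0685 and 0.0287) in 5NC against 3NC, and with the RPKM forms for C1qb (-0.0212 and -0.0188) in overexpression against 5NC. The cause was not tested.

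The correlations of same-numbered deviations from the group means ranged from -0.64 to 0.39 over 9 pairs, and 5 were above 0.1. The lowest, -0.64 and -0.52, each involve 3NC replicate 2 or knockdown replicate 1. A deviation from a mean of 3 libraries depends on the others of its group. This check thus cannot decide whether the replicate numbers pair the libraries. With a replicate block, the log2 fold changes of Ptprc (0.15) and Lyz2 (0.0415) in knockdown against 3NC and of C1qb (-0.0180) in overexpression against 5NC turned. The block changed the count of all genes called from 51 to 21 in overexpression against 5NC and from 21 to 5 in 5NC against 3NC, and changed no call of a marker gene.

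With each of the 6 libraries compared left out in turn, the log2 fold change in knockdown against 3NC ranged from -2.45 to 3.06 for Ptprc, -1.0 to 1.16 for Csf1r, -1.73 to 1.36 for Cd68, -1.07 to 0.998 for Adgre1, -0.47 to 0.16 for Mrc1, -0.34 to 2.12 for C1qa, -0.30 to 1.88 for C1qb, -0.85 to 0.999 for Lyz2 and -0.75 to 0.17 for Cx3cr1. Of these 9 genes, each had its lowest value without knockdown replicate 1, and each its highest without 3NC replicate 2, other than Mrc1 and Cx3cr1, whose highest came without knockdown replicate 2. In 5NC against 3NC it ranged from -1.21 to 0.17 for Csf1r, -0.24 to 0.0334 for Mrc1, -0.25 to 0.44 for Cd163, -0.86 to 0.36 for C1qa, -1.01 to 0.26 for C1qb and -0.31 to 0.15 for Cx3cr1. In overexpression against 5NC it ranged from -0.0021 to 0.24 for Mrc1, -0.23 to 0.68 for Cd163, -0.16 to 0.19 for C1qa, -0.10 to 0.24 for C1qb and -0.0309 to 0.38 for Cx3cr1.

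In 5NC against 3NC, leaving out 3NC replicate 2 moved Adgre1 from -1.31 to -0.28. Counts of all genes called moved more. In knockdown against 3NC, DESeq2 called 16, and leaving out 1 of the 6 libraries gave 0 to 12. In overexpression against 5NC (51 called) there were 328 with DESeq2, 4582 with voom quality weights, 82 on log2(RPKM + 0.1), 107 with only the 6 libraries compared, 159 without both libraries and 9 to 49 with 1 library left out. In 5NC against 3NC (21 called) there were 173 with DESeq2, 82 with voom quality weights, 33 with total counts, 7 with only the 6 libraries compared, 45 without both libraries and 3 to 35 with 1 library left out. Depth limits Cd163 most, at 7 to 58 reads per library.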
